A study of Mus musculus with 6 samples.

Results

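The 10 genes followed here carry peptides from the cytosol to the cell surface on MHC class I molecules: H2-K1, H2-D1, B2m, Tap1, Tap2, Tapbp, Psmb8, Psmb9, Psmb10 and Erap1. They were listed by name for their part in this pathway, with no measured value in the rule, and are 10 of the 47643 gene IDs counted in each library; all 10 had counts and all 10 were tested. RNA came from mouse salivary gland organoids (mSGOs), which grow in Matrigel from dissociated cells of the adult submandibular gland. Cultures of 3 mice were harvested on day 5 and again on day 7, so there were 3 libraries per day. All 6 libraries came from C57BL/6 mice, female per the study's methods and 8-12 weeks old, and all were untreated and non-irradiated. All were kept in WRY medium, which holds EGF, FGF2, N2, insulin, the steroid dexamethasone, the kinase inhibitor Y27632, and conditioned medium with Wnt3a and R-spondin1. No library shows these genes without these factors. The comparison between the days asks how these genes differ between a younger and an older organoid culture.

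Nearly every nucleated cell shows on its surface short peptides cut from its own proteins. The proteasome cuts the proteins, the transporter TAP moves the peptides into the endoplasmic reticulum, an aminopeptidase trims them there, and tapasin helps to load them onto a class I heavy chain paired with beta-2 microglobulin, where CD8+ T cells can inspect them. Epithelial cells hold a low level of this machinery at rest, and interferons, above all interferon gamma, are known to raise it and to exchange the catalytic subunits of the standard proteasome for those of the immunoproteasome.

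Libraries held 1918198 to 2837397 counts in genes. A count of 0 allows up to 3 counts, which is 1.06 to 1.56 CPM (counts per 1000000) by the unscaled total, depending on the library. All other CPM were scaled with TMM library sizes. Each count is a read from the 3′ end of a transcript. Levels are compared between libraries. Shares and ratios of the counts of different genes are also compared between libraries, and are not read as relative amounts of the genes. Genes of epithelial cells were abundant, with the summed level of 8 epithelial markers at 14400 to 18170 CPM at day 5 and 11810 to 16030 CPM at day 7. Of 18 leukocyte markers, 15 had no count in any library, among them Lyz2, Tyrobp, Adgre1, Cd3e and Nkg7. The pan-leukocyte gene Ptprc had 1 count in all. The list summed to 8.03 to 10.7 CPM at day 5 and 9.30 to 13.9 CPM at day 7, nearly all of it Cd14 and Cd68. Within this sum Cd68, a lysosomal gene of macrophages, was higher at day 7, with 4, 2 and 1 counts at day 5 and 8, 17 and 14 counts at day 7 (2.36 ± 0.61 on the log2 scale, edgeR adjusted p = 0.0151), while Cd14 was at -0.48 and did not pass. Endothelial markers summed to 12.3 to 14.1 CPM and then 13.2 to 27.4 CPM, with Cdh5 and Tek at 0. Most of this sum was Egfl7, with 78 counts over the day 5 libraries and 122 over the day 7 libraries, which did not pass. Fibroblast markers summed to at most 2.94 CPM, with Col1a2, Col3a1 and Lum at 0. The day 7 libraries differed more among themselves than the day 5 libraries did: the median SD of log2 CPM over 8172 genes averaging 10 CPM or more was 0.16 at day 5 and 0.32 at day 7. Day 7 mouse 3 is the library that most often stood apart for the genes below, so results are also given without it.

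Between the days, 0 of the 10 genes passed the threshold, an adjusted p under 0.05 with an absolute log2 fold change over 0.6 in edgeR's quasi-likelihood test. Of all 15792 genes tested, 7.22% passed as higher and 4.82% as lower at day 7, 12% in all (1140 higher and 761 lower, or 950 and 1008 when libraries were scaled by their totals only). The smallest p among the 10 belonged to the transporter subunit Tap1 and the trimming enzyme Erap1, at unadjusted 0.0083 and 0.020. These were the 2 of the 10 with an unadjusted p under 0.05, which 25.8% of all genes had. DESeq2 and limma voom also put 0 of the 10 past the threshold, with 1 and 3 of them at an unadjusted p under 0.05. In the fit blocked by mouse 1 of the 10 passed, which was Tap1, and Tap1 alone also passed without the filter on low counts. The median log2 fold change of the 10 was 0.12, with a range from -0.78 for Erap1 to 1.24 for Psmb8, and 6 of the 10 were above 0. The median of all genes tested was -0.0073. In these bulk libraries, fewer cells of a type and less RNA per cell cannot be told apart.

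**Figure D1:**
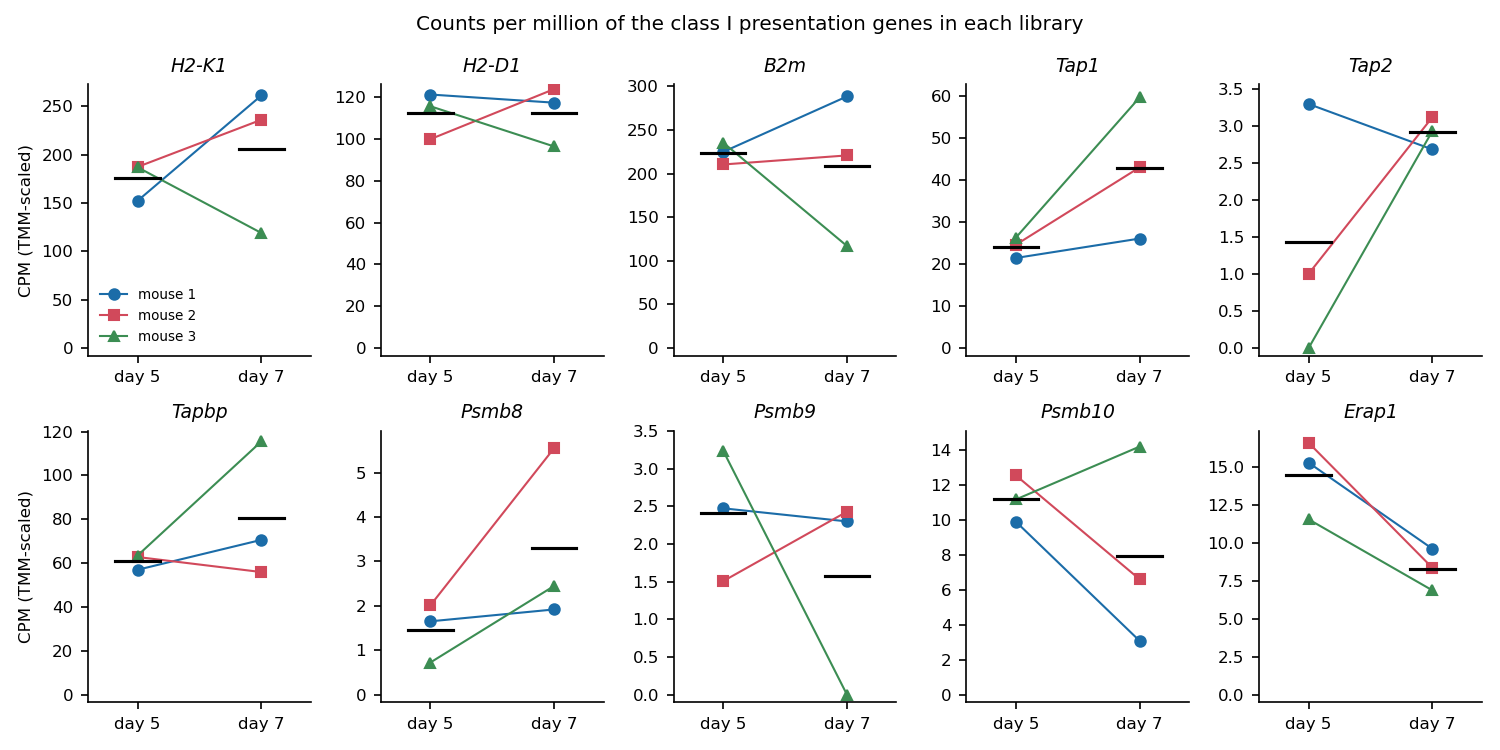
TMM-scaled CPM of each of the 10 genes on a linear axis that starts at 0, at day 5 and day 7, with a line joining the libraries of a mouse and a black bar at the mean of 3 libraries. Tap1 is higher and Erap1 lower at day 7 in all 3 mice, while H2-K1, B2m and Tapbp spread apart at day 7, with mouse 3 at one end.

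The heavy chains that present peptides in C57BL/6 mice, H2-K1 (ENSMUSG00000061232, chr17:34214987-34219321, minus strand) and H2-D1 (ENSMUSG00000073411, chr17:35481691-35486475, plus strand), and the light chain B2m (ENSMUSG00000060802, chr2:121977957-121983594, plus strand) were well covered at both days, with 814 to 1627 counts a day. Their promoters are shown because these were the 3 of the 9 genes with an entry in the RefSeq promoter table that held an interferon regulatory factor (IRF) type motif, AANNGAAA in the 250 bases before the start. The same 3 also held the kappa B consensus, which NF-kappa B proteins bind. The sequences, placed on GRCm39 by exact match of a table made on GRCm38.p6, run 5′ to 3′ on the gene's strand, and the capitals mark these motifs on either strand. The starts are RefSeq starts, and the windows before them reach into the gene spans given above.
H2-K1 (chr17:34219308-34219557, minus strand): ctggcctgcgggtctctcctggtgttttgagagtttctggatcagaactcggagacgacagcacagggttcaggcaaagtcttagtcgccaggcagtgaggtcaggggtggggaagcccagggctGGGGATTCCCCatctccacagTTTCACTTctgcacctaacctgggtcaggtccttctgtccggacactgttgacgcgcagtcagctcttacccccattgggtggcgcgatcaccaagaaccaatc
H2-D1 (chr17:35481820-35482069, plus strand): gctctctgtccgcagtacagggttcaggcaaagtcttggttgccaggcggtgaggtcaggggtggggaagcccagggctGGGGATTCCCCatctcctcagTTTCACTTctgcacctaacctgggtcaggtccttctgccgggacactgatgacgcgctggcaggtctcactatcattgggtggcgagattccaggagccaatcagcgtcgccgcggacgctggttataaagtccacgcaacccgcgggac
B2m (chr2:121977918-121978167, plus strand): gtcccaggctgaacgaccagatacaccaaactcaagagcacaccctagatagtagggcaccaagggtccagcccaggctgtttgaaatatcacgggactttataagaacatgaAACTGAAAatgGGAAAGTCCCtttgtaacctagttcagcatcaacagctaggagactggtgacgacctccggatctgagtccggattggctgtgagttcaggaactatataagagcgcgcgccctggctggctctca
In H2-K1 and H2-D1 the kappa B motif comes first, 125 and 171 bases before the start, as 2 overlapping matches. The IRF type motif follows at 104 and 150 bases. A second RefSeq start of H2-K1 puts its kappa B and IRF type motifs at 111 and 90 bases. In B2m the order is turned, with the IRF type motif at 137 bases and the kappa B motif at 126. Of 27025 genes searched in the same way, 23.9% held AANNGAAA and 4.46% held the kappa B consensus. CCAAT, the box that NF-Y reads, was in 6 of the 9 (H2-K1, H2-D1, B2m, Tap1, Tapbp and Psmb9) and in 37.5% of all. The motif letters were set with these promoters in view, and a match is a run of letters, not a measured site.

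H2-K1 stood at 152, 187 and 187 CPM at day 5 and at 261, 236 and 119 CPM at day 7 in mice 1, 2 and 3. Day 7 held both the highest values and the lowest, so the days overlapped. The log2 fold change was 0.23 ± 0.24 (SE, 3 libraries per day; edgeR adjusted p = 0.595), with a 95% interval from -0.28 to 0.74. Without day 7 mouse 3 it was 0.50 with an adjusted p of 0.023, which is under the p threshold and short of the fold threshold.

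H2-D1 had the smallest difference between the days of the 10, at 121, 99.9 and 116 CPM at day 5 and 117, 124 and 96.4 CPM at day 7. Its day means were 112 ± 11.1 and 113 ± 14.4 CPM (SD, n = 3). Between the days it differed by 0.00 ± 0.19 on the log2 scale (95% interval -0.40 to 0.41, edgeR adjusted p = 0.990). The interval leaves out a change in either direction as large as the fold threshold of 0.6. H2-K1 and H2-D1 are close copies: the last 500 bases of the transcripts share an exact run of 51 bases. The 3′ end of H2-D1 also holds a repeat with exact runs of up to 71 bases in transcripts of other genes. How reads were divided among these genes depends on a counting rule that is not given in the sources used here.

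B2m stood at 225, 210 and 236 CPM at day 5 and at 288, 221 and 117 CPM at day 7. The day 5 libraries lay within 5.67% (coefficient of variation, CV) and the day 7 libraries within 41.4%. On the log2 scale it differed by -0.10 ± 0.25 between the days (95% interval -0.62 to 0.42, edgeR adjusted p = 0.854) and turned to 0.19 (adjusted p = 0.423) without day 7 mouse 3. B2m and H2-K1, the light and heavy chain of the same complex, ordered the day 7 libraries in the same way, with mouse 1 highest and mouse 3 lowest. Over the 6 libraries their log2 CPM correlated at r = 0.84, and these points share library and depth.

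TAP is a dimer of transporter subunits, Tap1 and Tap2, and both lie in the class II region of the MHC beside the immunoproteasome genes. Psmb9, Tap1, Psmb8 and Tap2 fit in 34870 bases of chromosome 17, and 7 of the 10 genes lie within 1351603 bases of it (chr17:34134873-35486475 on GRCm39). Psmb9 and Tap1 point away from each other with 225 bases between the RefSeq starts, so the stretch between these starts lies upstream of both. In the GENCODE annotation the genes overlap there, with 743 exon bases shared on opposite strands. The stretch is shown from the Tap1 side because the fitted differences of these neighbours had opposite signs. Neither gene passed the threshold with all libraries. The direction of Psmb9, with 18 counts at day 5 and 13 at day 7, was not settled (95% interval -1.99 to 0.92). The 250 bases shown reach past the RefSeq start of Psmb9. They hold neither AANNGAAA nor the kappa B consensus, so they have no capitals.
Tap1 (chr17:34406280-34406529, plus strand): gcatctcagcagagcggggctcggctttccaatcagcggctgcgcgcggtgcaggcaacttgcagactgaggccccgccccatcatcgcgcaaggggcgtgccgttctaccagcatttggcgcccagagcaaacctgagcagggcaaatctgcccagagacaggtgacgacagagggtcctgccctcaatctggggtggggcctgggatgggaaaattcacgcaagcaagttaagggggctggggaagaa
Tap1 (ENSMUSG00000037321, chr17:34405996-34416199, plus strand) stood at 21.5, 24.6 and 26.3 CPM at day 5 and at 26.1, 43.1 and 59.7 CPM at day 7. It was higher at day 7 in each of the 3 mice, while the lowest day 7 library lay just under the highest day 5 library, so the days overlapped. The fitted fold was 1.77, a log2 fold change of 0.82 ± 0.28 with a 95% interval from 0.24 to 1.41, and the edgeR adjusted p was 0.0611. With the mouse as a block in the same test, which compares the days within each mouse, Tap1 passed the threshold at 0.77 (adjusted p = 0.0263). It also passed at 1.08 without day 7 mouse 1 (adjusted p = 0.0038), its lowest day 7 library, and fell short at 0.52 without day 7 mouse 3 (adjusted p = 0.132), its highest. Over all alternatives the adjusted p ran from 0.0038 to 0.226, and the direction was the same in all of them.

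Tap2 (ENSMUSG00000024339, chr17:34422501-34435829, plus strand) was near the limit of detection, with 8, 2 and 0 counts at day 5 and 7, 9 and 6 counts at day 7. Its log2 fold change of 1.03 ± 0.73 had a 95% interval from -0.51 to 2.57 (edgeR adjusted p = 0.387). Without day 5 mouse 1 it was 2.63 and without day 5 mouse 3 it was 0.38. A difference between the days was not detectable for Tap2 at this depth.

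Tapbp (ENSMUSG00000024308, chr17:34134873-34148267, plus strand) encodes tapasin, which holds the heavy chain at TAP while a peptide is loaded. It stood at 56.9, 62.8 and 63.4 CPM at day 5 and at 70.6, 55.9 and 116 CPM at day 7. Mouse 3 at day 7 was the highest library by far, and the others of that day were on both sides of day 5. The log2 fold change was 0.39 ± 0.24 (95% interval -0.11 to 0.90, edgeR adjusted p = 0.322) and 0.05 without day 7 mouse 3. In the annotation, 161 of the last 500 transcript bases of Tapbp overlap exons of the long noncoding RNA Gm64688 on the opposite strand, and the strand setting of the counts is not given in the sources used here.

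Erap1 (ENSMUSG00000021583, chr13:74787687-74841320, plus strand), the aminopeptidase that trims peptides to the length class I molecules hold, was the only one of the 10 whose days did not overlap. It stood at 15.3, 16.6 and 11.5 CPM at day 5 and at 9.59, 8.33 and 6.85 CPM at day 7. Every mouse was lower at day 7 and the highest day 7 library was below the lowest day 5 library, a pattern that 15.5% of all genes tested showed in that direction and 15.4% in the other. The log2 fold change was -0.78 ± 0.31 (95% interval -1.43 to -0.14), and the edgeR adjusted p was 0.107, or 0.0832 with the mouse as a block. It lay between -0.93 and -0.68 under all alternatives and passed the threshold in 0 of them. All of the last 500 bases of its transcript overlap exons of Cast, the calpastatin gene, on the opposite strand, so without a stated strand setting reads of Erap1 and Cast cannot be told apart. Cast was at 0.48 ± 0.19 on the log2 scale (edgeR adjusted p = 0.115), with every day 7 library above every day 5 library, the opposite side from Erap1.

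**Figure D2:**
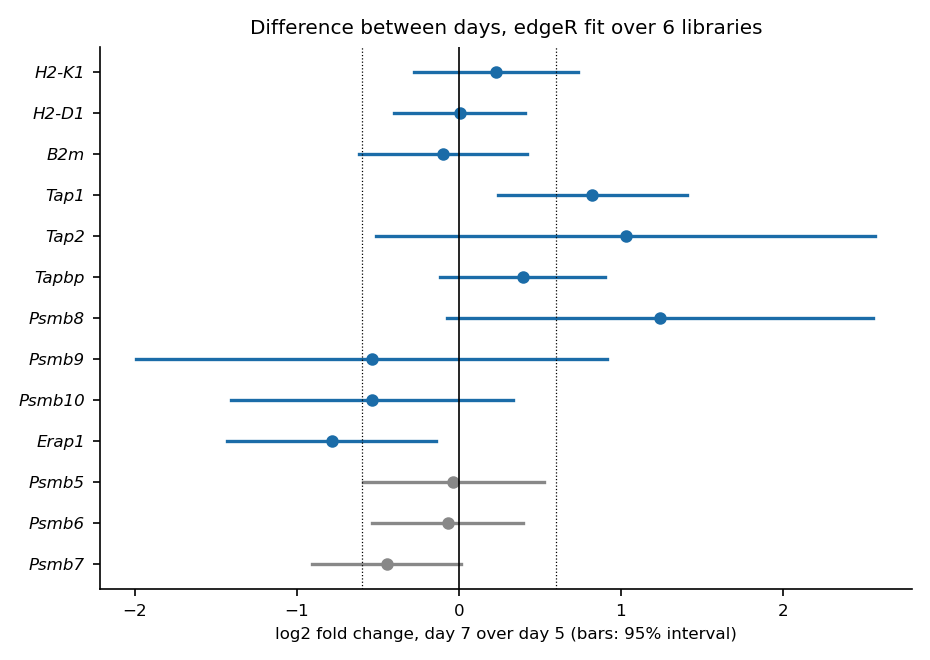
Log2 fold change of day 7 over day 5 (points) with its 95% interval (bars) from the edgeR fit over 6 libraries, for the 10 genes in blue and for Psmb5, Psmb6 and Psmb7, the constitutive proteasome subunits, in grey; dotted lines mark 0.6 in either direction. The intervals of Tap1 and Erap1 leave out 0 on opposite sides, and those of Tap2, Psmb8 and Psmb9, which had 10 to 26 counts a day, are the widest.

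The immunoproteasome subunits Psmb8, Psmb9 and Psmb10 take the places of the constitutive catalytic subunits Psmb5, Psmb6 and Psmb7, in that order. All 3 had few counts, 10 to 80 a day, and none of the 3 passed the threshold in the edgeR test with all libraries. Together they made up 4.60% to 4.73% of the counts of the 6 catalytic subunits in day 5 libraries and 3.05% to 5.36% in day 7 libraries. The spread at day 7 therefore took in the day 5 range on both sides.

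Psmb8 (ENSMUSG00000024338, chr17:34416690-34420428, plus strand) had 4, 4 and 2 counts at day 5 and 5, 16 and 5 counts at day 7. It was higher at day 7 in all 3 mice, with a log2 fold change of 1.24 ± 0.63 (95% interval -0.07 to 2.55, edgeR adjusted p = 0.221). Without day 7 mouse 2, which held 16 of the 26 day 7 counts, it was 0.60 (adjusted p = 0.677). Its counterpart Psmb5 was at 27.7 to 32.6 CPM at day 5 and at 19.6 to 40.6 CPM at day 7 (log2 fold change -0.03 ± 0.27). The last 500 transcript bases of Psmb5 hold exact runs of up to 84 bases found in other genes, so its level is less certain. As a share of Psmb8 and Psmb5 together, Psmb8 was 4.82%, 6.15% and 2.53% at day 5 and 8.93%, 16% and 5.68% at day 7. The share was higher at day 7 within every mouse. The pooled share went from 4.41% (exact 95% interval 2.13% to 7.95%) to 10.7% (7.08% to 15.2%), and these intervals cover counting error only. In an exact two-sided permutation test of the log2 ratio, 3 libraries against 3, the difference of 1.12 had p = 0.2 (0.6 adjusted over the 3 pairs), where the smallest p such a test allows is 0.1.

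Psmb9 (ENSMUSG00000096727, chr17:34400960-34406738, minus strand), which shares the stretch before its RefSeq start with Tap1, had 6, 3 and 9 counts at day 5 and 6, 7 and 0 counts at day 7. The library with no count, mouse 3, was the one in which Tap1 was highest. The log2 fold change was -0.54 ± 0.69 (95% interval -1.99 to 0.92, edgeR adjusted p = 0.677). Its counterpart Psmb6 was at 162 to 193 CPM at day 5 and 129 to 238 CPM at day 7 (log2 fold change -0.07 ± 0.22). The log2 ratio of Psmb9 to Psmb6 differed by -1.0 between the days (exact permutation p = 0.9), and by 0.38 without day 7 mouse 3.

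Psmb10 (ENSMUSG00000031897, chr8:106662362-106665077, minus strand), the only immunoproteasome subunit gene outside chromosome 17, had 24, 25 and 31 counts at day 5 and 8, 19 and 29 counts at day 7. As CPM this was 9.90, 12.6 and 11.2 and then 3.07, 6.60 and 14.2, so mice 1 and 2 were lower at day 7 and mouse 3 was higher. The log2 fold change was -0.54 ± 0.41 (95% interval -1.41 to 0.33, edgeR adjusted p = 0.436). Without day 7 mouse 3 it passed the threshold at -1.18 (adjusted p = 0.0323). Psmb7 was at 89.0 to 99.4 CPM at day 5 and at 48.0 to 84.0 CPM at day 7 without overlap (log2 fold change -0.45 ± 0.22, edgeR adjusted p = 0.206). In the annotation 405 of its last 500 transcript bases overlap exons of Nek6 on the opposite strand. The share of Psmb10 in the pair was 9.34%, 11.2% and 11.1% at day 5 and 3.52%, 7.98% and 22.8% at day 7. The log2 ratio differed by -0.25 between the days (exact permutation p = 0.7), by 0.45 without day 7 mouse 1 and by -1.03 without day 7 mouse 3.

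**Figure D3:**
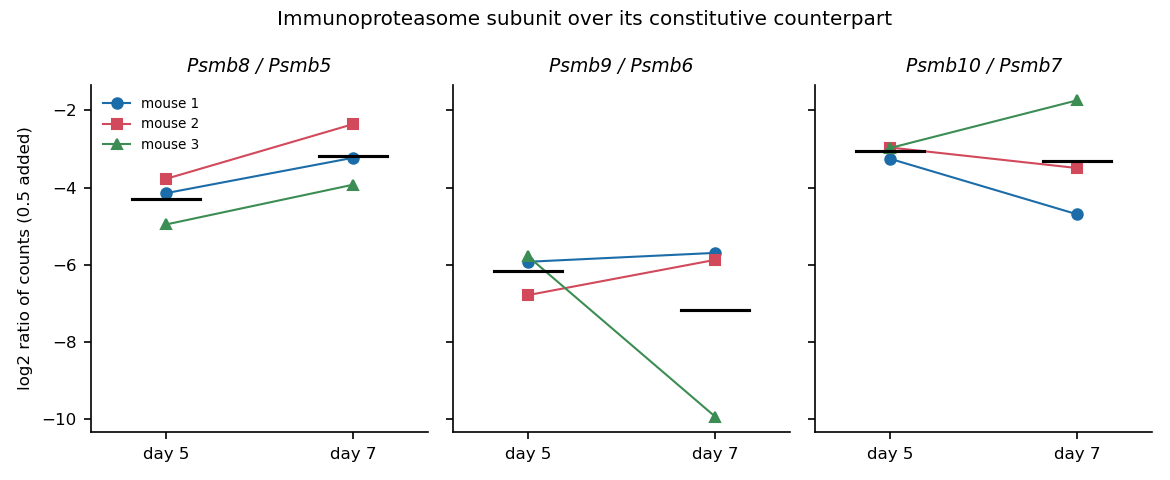
Log2 ratio of the count of an immunoproteasome subunit to that of its constitutive counterpart, with 0.5 added to each count, per library; lines join the libraries of a mouse and black bars are means of 3 libraries. Psmb8 over Psmb5 is higher at day 7 in all 3 mice, Psmb9 over Psmb6 is set at day 7 by the library without a Psmb9 count, and Psmb10 over Psmb7 spreads from -4.69 to -1.74 at day 7.

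The day 7 libraries split the better counted genes into those high and those low in mouse 3. Against the mean log2 CPM of the other day 7 libraries, mouse 3 was at -1.10 for B2m, -1.06 for H2-K1 and -0.32 for H2-D1, and at 0.87 for Tapbp and 0.81 for Tap1. Among the 8172 genes averaging 10 CPM or more these are the 7.26th, 8.04th and 30.1st percentiles for B2m, H2-K1 and H2-D1, and the 94.4th and 92.9th for tapasin and Tap1. So H2-K1 and B2m were low, and Tap1 and Tapbp high, in the same library. The count ratio of B2m to Tapbp, which does not depend on library scaling, was 3.35 to 3.95 at day 5, 4.09 and 3.95 in mice 1 and 2 at day 7, and 1.01 in mouse 3. The count ratio of H2-K1 to Tap1 was likewise 7.10 to 7.61 at day 5 and 10.0, 5.48 and 1.99 at day 7. Both ratios set a gene low in day 7 mouse 3 against a gene high in it, so they restate the deviations above. Over the 6 libraries, log2 CPM correlated at -0.80 between B2m and Tapbp, at -0.87 between Tap1 and Erap1 and at 0.70 between Tap1 and Tapbp, and these 6 points share library and depth. Deviations of mouse 3 over all these genes also went with the GC content of the last 500 transcript bases. The Spearman correlation was 0.23 across 8159 genes, which are not independent replicates. In these bases B2m has 33% GC, Erap1 41%, H2-D1 44.2%, H2-K1 46.8%, Tapbp 49% and Tap1 50.4%. The order was not kept throughout: Erap1 (-0.34 in mouse 3) and H2-D1 (-0.32) have less GC than H2-K1 (-1.06) but were less low. With counts corrected for this GC content, an alternative chosen after seeing the data, Tap1 was at 0.77 (edgeR adjusted p = 0.0601) and 0 of the 10 passed. The part of GC content in the mouse 3 values was not tested.

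**Figure D4:**
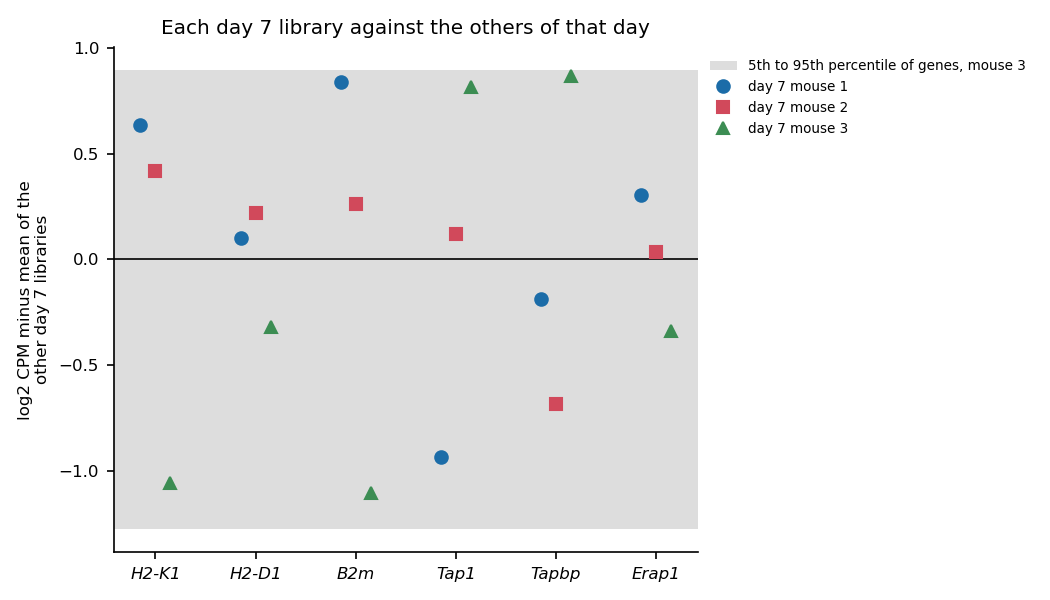
Log2 CPM of each day 7 library minus the mean of the other day 7 libraries for the 6 of the 10 genes averaging 10 CPM or more; the grey band holds the 5th to 95th percentile of all such genes for mouse 3, from -1.28 to 0.90. Mouse 3 lies near the lower edge of the band for H2-K1 and B2m and near the upper edge for Tap1 and Tapbp.

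Around the 10 genes, 160 others were listed by role in 12 groups, of which 159 matched an ID and 123 were tested; 11 were higher and 8 lower at day 7 by the edgeR threshold, beside 7.22% and 4.82% of all genes. Of 22 other class I and class I-like heavy chains with an ID, 8 had no count, among them H2-Q1, H2-Q2 and H2-Q6, and 12 were tested, with a median log2 fold change of 0.02, or 0.15 with H2-M2, which had no count at day 7, at its bound. Mr1, which presents vitamin B metabolites to MAIT cells, was the 1 that passed: it stood at 10.3, 11.6 and 13.3 CPM at day 5 and at 32.6, 25 and 26.9 CPM at day 7, 1.26 ± 0.27 on the log2 scale (edgeR adjusted p = 0.0042). The days of Mr1 were far apart in all 3 mice, and it passed under all 17 alternatives.

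Among genes of protein cutting and folding that class I presentation shares with all cells, the changes that passed were falls, with Blmh as the exception. Of the 11 other subunits of the 20S core, 0 were higher and 4 lower, and in 8 the days did not overlap with day 7 lower, beside 4.82% of all genes past the threshold as lower and 15.5% not overlapping in that direction. The median log2 fold change was -0.53. Psmb3 averaged 97.8 ± 22 CPM at day 5 and 44.8 ± 6.06 CPM at day 7 (SD, n = 3), -1.12 ± 0.22 on the log2 scale (edgeR adjusted p = 0.0024). Psma3 fell from 135 ± 11.8 to 71.8 ± 10.3 CPM (-0.90 ± 0.20, adjusted p = 0.0049) and Psmb4 from 207 ± 7.82 to 129 ± 8.01 CPM (-0.68 ± 0.18, adjusted p = 0.0190). Psmb4 lost its call without any 1 of the day 5 libraries or without day 7 mouse 2 (adjusted p 0.050 to 0.117). The other 1 that passed was Psma2, named after its values were seen, which passed under 10 of 17 alternatives. The last 500 bases of Psmb3 share exact runs of up to 169 bases with other loci, so its level is less certain. Of 9 activators and assembly factors, Psme2, a subunit of the interferon-inducible PA28 cap, fell from 30.3 ± 4.42 to 12.1 ± 3.30 CPM (-1.30 ± 0.28, edgeR adjusted p = 0.0045). It shares exact runs of up to 222 bases with its copy Psme2b. Its partner Psme1 was at 0.47 ± 0.24 (adjusted p = 0.219). Of the 6 loading helpers, Uggt1, the glucosyltransferase that checks folding and peptide loading, fell from 83.1 ± 4.52 to 50.2 ± 8.38 CPM (-0.72 ± 0.20, adjusted p = 0.0258), and the chaperones Calr, Canx and Pdia3 did not pass. Uggt1 lost its call without any 1 of the day 5 libraries or without day 7 mouse 2 (adjusted p 0.060 to 0.146). Its 3′ end holds exact runs of up to 47 bases found in other transcripts. Of 7 other peptidases, the cytosolic bleomycin hydrolase Blmh rose from 216 ± 21.6 to 461 ± 31.4 CPM (1.09 ± 0.18, adjusted p = 6.49e-04).

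Among the regulators of class I genes 1 of 20 transcription factors passed as higher and 0 as lower, beside 7.22% and 4.82% of all genes. The median log2 fold change of the 20 was -0.25, with 5 above 0. In 7 the days did not overlap with day 7 lower and in 3 with day 7 higher, beside 15.5% and 15.4% of all genes. Of 20 transcription factors, Irf9, the DNA-binding part of the ISGF3 complex, stood at 29.8 ± 6.67 CPM at day 5 and rose to 59.7 ± 13.2 CPM at day 7 (0.99 ± 0.24, edgeR adjusted p = 0.0101). It did not pass without day 5 mouse 1 (adjusted p = 0.0728) or without day 5 mouse 2 (0.0998). Its 3′ end holds a repeat that other transcripts share. Nlrc5, the coactivator dedicated to class I genes, had 2 counts over the day 5 libraries and 2 over the day 7 libraries, so no fold is given. Irf1 was at -0.33 ± 0.30 (adjusted p = 0.516) and Rfx5, of the complex that binds the X box of MHC promoters, at 0.53 ± 0.28 (0.252). Without day 7 mouse 1, Irf1 passed as lower at -0.85 (adjusted p = 0.0311). Of 9 receptor and kinase genes, the interferon gamma receptor chain Ifngr1 rose from 45.2 ± 6.58 to 96.7 ± 27.5 CPM (1.10 ± 0.23, adjusted p = 0.0037), and its partner Ifngr2 was at -0.58 ± 0.29 (0.208). Of 9 interferon genes, 8 had no count in any library, Ifng and Ifnb1 among them, and Ifne had 1.

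On the list of interferon-stimulated genes, those that passed were higher at day 7. Psme2 of the interferon-inducible PA28 cap, which was listed with the proteasome activators, passed as lower (-1.30). Of 40 listed, 34 were tested, 5 were higher and 0 lower. In 10 the days did not overlap, with day 7 higher, beside 7.22% of all genes past the threshold as higher and 15.4% not overlapping in that direction. The median log2 fold change was 0.66 (0.59 with Iigp1, which had no count at day 5, at its bound). Ifi44 had 11 counts over the day 5 libraries and 101 over the day 7 libraries (3.09 ± 0.46, edgeR adjusted p = 2.15e-04). The secreted glycoprotein gene Lgals3bp rose from 7.92 ± 1.56 to 28.1 ± 6.22 CPM (1.80 ± 0.29, adjusted p = 4.98e-04) and the virus tether Bst2 from 4.10 ± 2.10 to 13.0 ± 2.80 CPM (1.62 ± 0.38, adjusted p = 0.0089). Bst2 did not pass without day 5 mouse 1, day 5 mouse 2 or day 7 mouse 2 (adjusted p 0.053 to 0.079). The others that passed were Trim25 and Isg15, named after their values were seen, and they passed under 11 and 7 of 17 alternatives. Their 3′ ends hold exact runs of up to 55 and 52 bases found in other transcripts. The macrophage gene Cd68 was higher at day 7 beside these genes and the class II gene H2-Ab1. The leukocyte markers Adgre1, Csf1r, Lyz2 and Tyrobp had no count in any library. The part of Cd68-expressing cells in these values was not tested. The guanylate-binding genes Gbp4, Gbp5 and Gbp6 and the chemokine gene Cxcl9 had no count in any library.

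**Figure D5:**
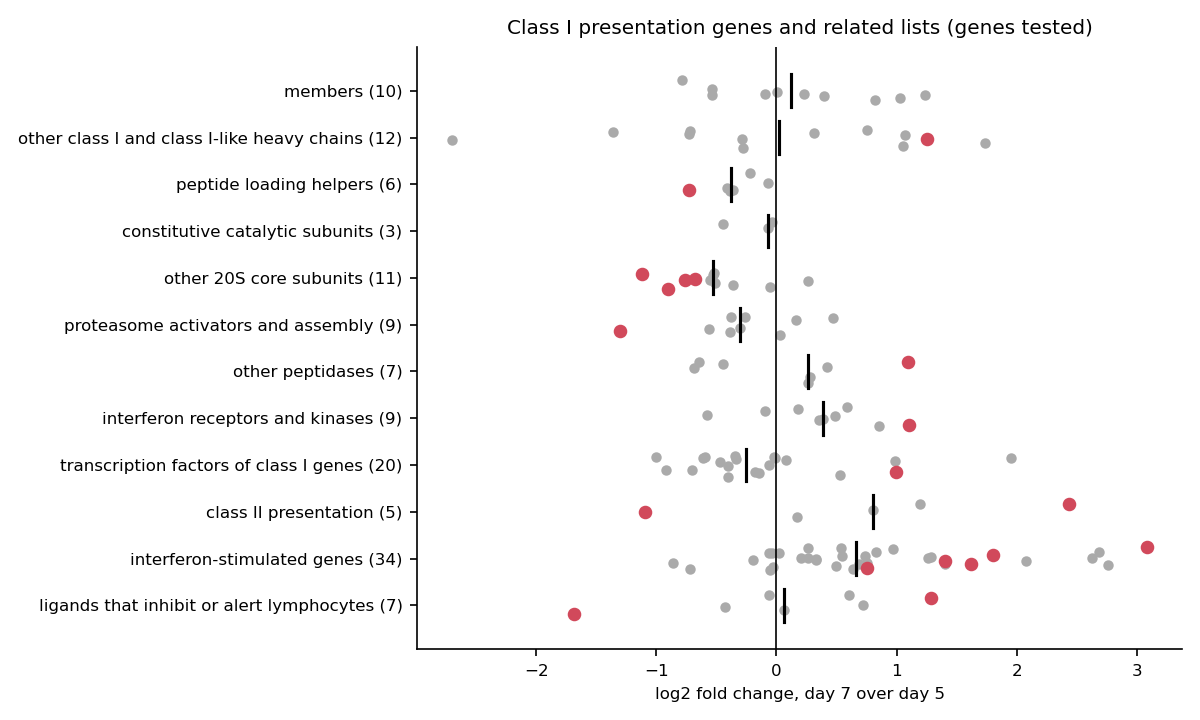
Log2 fold change of day 7 over day 5 for every tested gene of the 10 and of 11 related lists (number of genes tested in brackets); red points passed the edgeR threshold, grey points did not, and black bars are medians. None of the 10 is red, the 4 red 20S core subunits lie below 0 and the 5 red interferon-stimulated genes lie above 0.

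Class II presentation is the route of professional antigen-presenting cells. Of 13 genes, 8 had no count in any library, among them the invariant chain Cd74, the master regulator Ciita and H2-Aa. H2-Ab1 passed as higher with 6 counts at day 5 and 36 at day 7 (2.43 ± 0.72, edgeR adjusted p = 0.0337). At day 7 it stood at 9.20, 3.12 and 1.47 CPM, with mouse 1 highest, and it did not pass under 8 of 16 alternatives, among them DESeq2, limma voom and each library left out except day 7 mouse 3. Ifi30, a lysosomal thiol reductase, fell from 39.6 ± 3.98 to 18.3 ± 9.05 CPM (-1.09 ± 0.30, adjusted p = 0.0235), a call lost without any 1 of the day 5 libraries or without day 7 mouse 2 (adjusted p 0.082 to 0.136). Of 10 ligands that lymphocytes read, Nectin2, a ligand of the activating receptor DNAM-1, rose from 30.6 ± 4.71 to 74.9 ± 19.7 CPM (1.29 ± 0.24, edgeR adjusted p = 0.0016). Raet1e, a ligand of NKG2D, fell from 5.21 ± 1.19 to 1.59 ± 0.29 CPM (-1.69 ± 0.50, adjusted p = 0.0329), with exact runs of up to 175 bases shared with Raet1d. Raet1e did not pass in DESeq2 (adjusted p = 0.105), without any 1 of the day 5 libraries or without day 7 mouse 2 (0.067 to 0.176).

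The genes most like the mean of the 10 across libraries were Tmed9, Tbc1d15, Eif4h, Bloc1s4 and Ngrn. Their Pearson r over the 6 libraries with the mean of the centred log2 CPM of the 10 was 0.95 to 0.99, the highest among 6106 genes averaging 20 CPM or more outside the lists.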

How the data were processed

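Per the labels, polyadenylated RNA was made into libraries with the Lexogen QuantSeq 3′ kit, and the authors aligned the reads to GRCm39. The deposited files hold whole-number read counts per Ensembl gene ID, not normalised. The submitters' processing notes name edgeR; aligner, annotation, strand setting and treatment of multiply aligned reads are not given in the sources used here. The 5 closing entries that name no gene (13.7% to 14.4% of reads at day 5, 9.12% to 9.74% at day 7) were left out. GENCODE vM39 named 43465 of the 47643 IDs (91.2%).

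A gene entered the test with 1 or more counts in 2 or more libraries, which held for 15792 of the 18687 genes with a count. The test was the quasi-likelihood F test of edgeR 4.0.16 (R 4.3.3, TMM, robust = FALSE), two-sided, with day as the only term and Benjamini-Hochberg adjustment over all genes. Same-numbered libraries come from the same mouse per the titles; their deviations from the day means correlated at 0.14, -0.10 and 0.16 for mice 1, 2 and 3 over 8172 genes. No libraries of a day agreed within sampling noise (chi-square per degree of freedom at least 1.99). The script was tested on simulated data. Ratios used log2 counts with 0.5 added. Alternatives were DESeq2 1.42.0, limma 3.58.1 (voom), other scalings and filters, robust fitting, the mouse as a block, thinning, each library left out and, added after seeing the data, a GC correction.

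The 10 genes and all lists were chosen with earlier results of these data known. The genes named are the 10, Psmb5, Psmb6 and Psmb7, up to 3 genes per list and direction past the threshold by smallest p, Nlrc5, Irf1, Rfx5, any interferon gene with a count, and the 5 genes most like the 10; some items the rule covers are not reported here. Exact binomial intervals (95%) and the floors of 3 counts cover counting error only, since molecular identifiers were not counted.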

Additional observations from a re-analysis of the deposited data

How the results depend on the processing

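The number of the 10 genes past the threshold was 0 with all libraries in edgeR, 1 without a filter (Tap1), 1 with the mouse as a replicate block (Tap1), and 0 to 1 when a library was left out (Tap1 without day 7 mouse 1, Psmb10 without day 7 mouse 3). Without the filter Tap1 had an adjusted p of 0.0171. With filterByExpr, Tap2, Psmb8 and Psmb9 were not tested, and DESeq2's size factors, the upper quartile, library totals, robust fitting, DESeq2, limma voom, thinning and the GC correction each put 0 of the 10 past it. Pathway genes past it numbered 19, 9 to 29 with a library left out, and 22 with the block. All genes past it numbered 1901, 797 to 2576 with a library left out, 2340 with the block and 2405 without the filter. The block ended the call of none of the genes named here as past the threshold, Cd68 aside. The result of the block for Cd68 is not given here.

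Directions of differences near 0 turned. H2-D1 (0.00) was at -0.034 with the upper quartile and -0.084 with library totals, and between -0.071 and 0.10 with a library left out. With a library left out, B2m (-0.10) lay between -0.40 and 0.19, Psmb5 (-0.03) between -0.31 and 0.19, and Psmb6 (-0.07) between -0.37 and 0.10, with no value for Nlrc5, which was at or under 3 counts on both days. Psmb6 was at 0.0043 when thinned. The log2 ratio of Psmb9 to Psmb6 ran from -1.74 to 0.38, that of Psmb10 to Psmb7 from -1.03 to 0.45 and that of Psmb8 to Psmb5 from 0.71 to 1.5 with a library left out; in exact sign-flip tests within mice, the paired form of these, p was 1, 0.75 and 0.25, and 0.25 is the smallest that 3 mice allow. The cause was not tested in any of these. Counts were few for Tap2, Psmb8, Psmb9 and Nlrc5, and there were 3 libraries per day. Libraries of a mouse share the donor, so with 3 mice the p-values measure the spread between these organoid cultures.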
